A study of Mus musculus with 32 samples.

Results

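The genes described here are 10 regulators of the passage from G1 into S phase: the D-type cyclins Ccnd1, Ccnd2 and Ccnd3, the E-type cyclins Ccne1 and Ccne2, the cyclin-dependent kinase inhibitor Cdkn1b (p27), the transcription factors Myc and Mycn, and the retinoblastoma family genes Rb1 and Rbl2 (p130). Every probe annotated to 1 of these symbols alone was taken. That gave 26 of 45037 probe sets and 10 of 18193 named genes on the knockdown arrays, and 11 of 21106 probes on the arrays of chemically treated cells.

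All samples were E14TG2a mouse embryonic stem (ES) cells. In the knockdown experiment, cells were transfected by Lipofectamine with a construct for RNA interference (RNAi) against Pou5f1 (Oct4; 4 arrays), one against Nanog (5 arrays), or the parental vector pSUPER-puro (called vector; 5 arrays), and were selected with puromycin at 1 µg/ml for 3 days from 24 h after transfection. The transfection reagent and the selection were common to all 3 groups, and no array of cells silenced for an unrelated gene was used here. The labels give the amount of plasmid, 2 µg, for the vector arrays only. In the other experiment, cells received retinoic acid (RA) at 0.1 µM, dimethyl sulfoxide (DMSO) at 1% or hexamethylene bisacetamide (HMBA) at 3 mM, and RNA was taken on days 2, 4 and 6. Each inducer and day was hybridised against untreated E14 cells on 2 arrays of opposite dye orientation, called ratio arrays below, with the sample in Cy3 as replicate 1 and in Cy5 as replicate 2. The labels do not say which arrays came from separate cultures, so p-values measure the spread between these arrays, which may be technical. The untreated reference had no arrays of its own, and tests of a ratio against 0 leave out its spread.

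In the textbook scheme, cyclin D proteins with Cdk4 or Cdk6 and cyclin E proteins with Cdk2 phosphorylate Rb and its relatives, which frees E2F factors to switch on the genes of S phase. Cdkn1b restrains these kinases, and Myc proteins raise the transcription of growth genes. ES cells are known for a short G1 phase, abundant cyclin E and little D-type cyclin, and they lengthen G1 as they differentiate.

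RefSeq promoter windows (GRCm38.p6) were given for 5 of the 10 genes. The 250 bases before the start site are printed for 3 genes on which results below turn. Mycn, on chromosome 12, fell with Pou5f1 silencing and with each inducer, and Ccne1, on chromosome 7, fell with Pou5f1 silencing. Cdkn1b, on chromosome 6, moved opposite ways in the 2 knockdowns on 1 of its 2 probe sets. Capitals mark matches, on either strand, to the E2F spellings TTTGGCGC, TTTCCCGC, TTTGCCGC or TTTCGCGC.
Mycn, minus strand, chr12:12941837-12942086: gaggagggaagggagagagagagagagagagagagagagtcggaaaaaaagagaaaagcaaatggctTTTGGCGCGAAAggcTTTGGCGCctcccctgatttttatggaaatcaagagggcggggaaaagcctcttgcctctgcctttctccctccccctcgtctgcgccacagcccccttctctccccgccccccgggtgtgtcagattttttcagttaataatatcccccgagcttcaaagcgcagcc
Ccne1, minus strand, chr7:38107491-38107740: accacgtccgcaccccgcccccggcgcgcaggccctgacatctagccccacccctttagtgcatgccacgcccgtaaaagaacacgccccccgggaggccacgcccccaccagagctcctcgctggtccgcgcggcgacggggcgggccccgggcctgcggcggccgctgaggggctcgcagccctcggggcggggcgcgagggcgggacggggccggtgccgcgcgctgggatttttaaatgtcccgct
Cdkn1b, plus strand, chr6:134920151-134920400: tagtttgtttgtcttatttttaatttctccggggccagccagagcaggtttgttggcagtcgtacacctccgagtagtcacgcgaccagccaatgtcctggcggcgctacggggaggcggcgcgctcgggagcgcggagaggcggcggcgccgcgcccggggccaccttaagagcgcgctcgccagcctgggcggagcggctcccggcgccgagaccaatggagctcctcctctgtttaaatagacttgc

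The Mycn window held 3 E2F matches, beginning 183, 179 and 168 bases before the start; the first, TTTGGCGC, overlapped the second, TTTCGCGC on the opposite strand. Of all 32851 windows of this length, 0.417% held TTTGGCGC, 0.256% held TTTCGCGC and 1.86% held any of these spellings. The Ccne1 and Cdkn1b windows had none. The E-box CACGTG (6.02% of all windows) and the octamer ATGCAAAT (1.6%) were in none of the 3. The GC box GGGCGG, present in 32.7% of all windows, was in all 3, at 4 positions in Ccne1, 2 in Mycn and 1 in Cdkn1b. The letters CCAAT, in 33.8% of windows, occurred at 2 positions in Cdkn1b alone of the 3. These are matches of letters, not measured binding.

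The knockdown values are log2 RMA signals, in which a difference of 1 is a doubling. Arrays of 1 group were closely alike, with median correlations between an array and its group of 0.992 to 0.997. Pou5f1 itself stood at 11.42 ± 0.09 (SD, n = 5) in vector cells, 11.32 ± 0.16 (n = 5) after Nanog RNAi and 9.03 ± 0.22 (n = 4) after Pou5f1 RNAi. Nanog stood at 11.09 ± 0.08, 9.29 ± 0.15 and 9.70 ± 0.11 in the same order, so Nanog RNA was also lower in the Pou5f1 group. Of the marker lists, the 8 pluripotency genes averaged between 10.74 and 10.85 in vector arrays, 9.98 and 10.05 in Nanog RNAi arrays, and 8.70 and 8.92 in Pou5f1 RNAi arrays. That list includes Pou5f1 and Nanog, so the silenced genes themselves lower its averages. The 7 trophectoderm genes averaged 5.52 to 5.60, 6.70 to 7.12 and 9.04 to 9.27, and the 6 primitive endoderm genes 5.58 to 5.69, 5.81 to 6.24 and 4.83 to 4.93. The 6 fibroblast genes averaged 4.71 to 4.93 in vector arrays, 4.75 to 5.01 in Nanog RNAi arrays and 6.26 to 6.34 in Pou5f1 RNAi arrays. The higher average there came with Tagln (5.43 above vector) and Acta2 (3.34), 2 genes of contractile actin filaments, while the list's median change was 0.24 and Thy1 fell (-0.81). RMA signals do not reach 0, so no marker was at 0. The list averages differed between groups, except that the fibroblast ranges of vector and Nanog RNAi arrays overlapped, and their part in the results below was not tested. In bulk RNA, fewer cells of a type and less RNA per cell cannot be told apart.

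A change was called where limma's Benjamini-Hochberg adjusted p, over all probe sets, was below 0.05. Pou5f1 RNAi changed 18 of the 26 probe sets (5 higher, 13 lower), against 31.6% of all probe sets. Nanog RNAi changed 11 of 26 (4 higher, 7 lower), against 15.6%, and 15 of 26 differed between the knockdowns (5 higher and 10 lower with Pou5f1 RNAi), against 29.5%. The median size of change over the 26 was 0.44 with Pou5f1 RNAi and 0.15 with Nanog RNAi, and over all probe sets 0.14 and 0.10. By the main probe set of each gene, the one with the highest mean signal, all 10 genes changed with Pou5f1 RNAi, against 40.1% of all 18193 genes. Of the 10, 5 rose (Ccnd3, Ccne2, Cdkn1b, Myc, Rb1) and 5 fell (Ccnd1, Ccnd2, Ccne1, Mycn, Rbl2). With Nanog RNAi 3 rose (Ccne2, Myc, Rb1) and 2 fell (Ccnd1, Cdkn1b), where 20.8% of all genes were called. The members were chosen with earlier results of these data known. Their counts here and on the ratio arrays below therefore describe these genes and are no test against all genes.

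**Figure D1:**
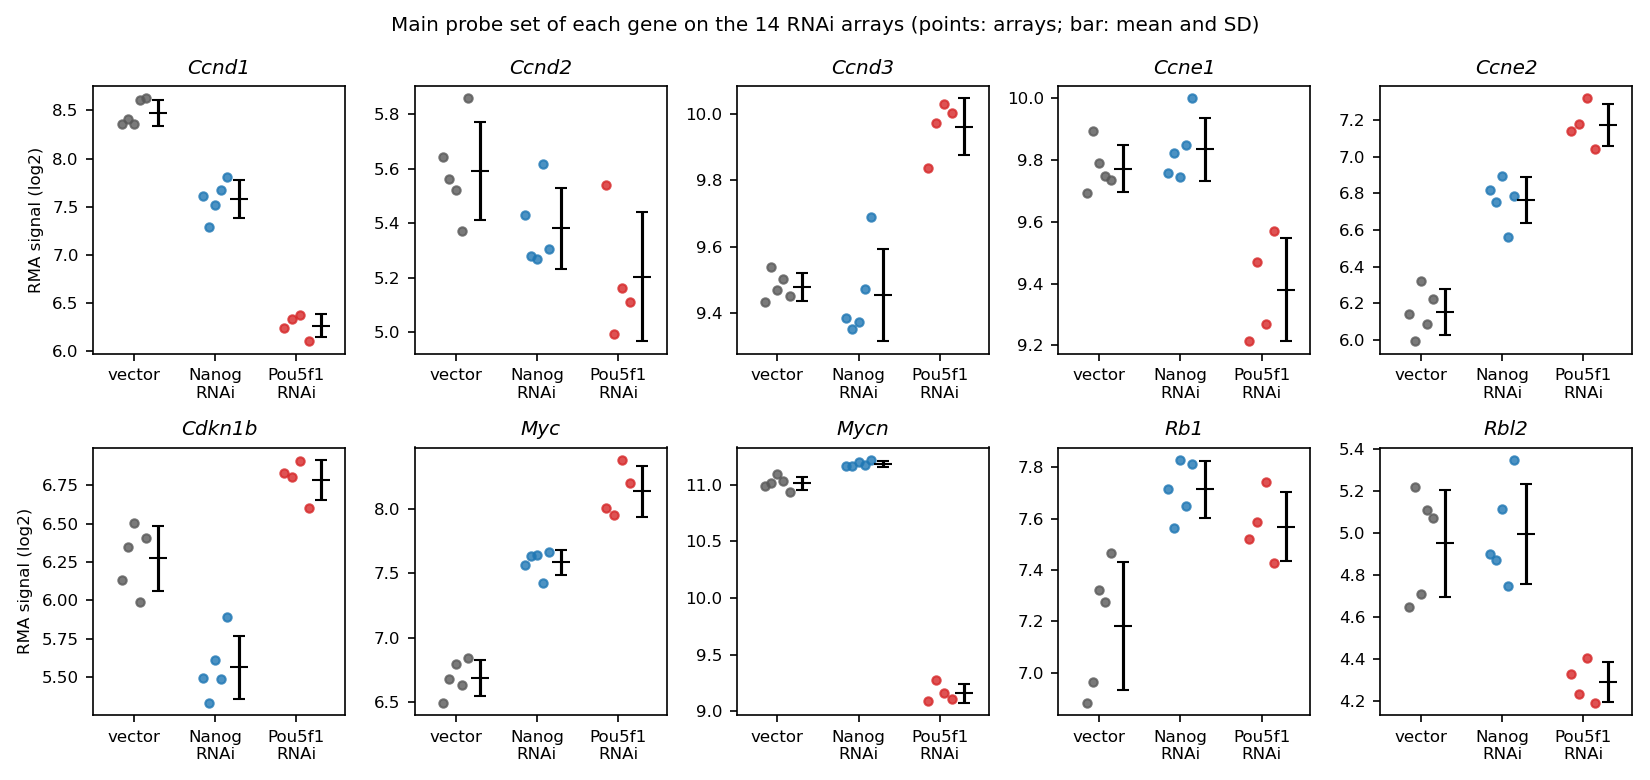
Log2 RMA signal of the main probe set of each of the 10 genes on the 14 knockdown arrays; points are arrays, bars the group mean and SD, and each panel has its own axis. Ccnd1 descended from vector (mean 8.47) through Nanog RNAi (7.58) to Pou5f1 RNAi (6.26), Myc ascended (6.69, 7.59, 8.13), and Mycn was low in the Pou5f1 group alone (9.16 against 11.01 in vector).

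Among the D-type cyclins, which pair with Cdk4 and Cdk6, Ccnd1 changed most. On its main probe set (1417420_at) the 5 vector arrays read 8.36, 8.41, 8.36, 8.61 and 8.63, the Nanog RNAi arrays 7.61, 7.29, 7.52, 7.67 and 7.81, and the Pou5f1 RNAi arrays 6.24, 6.33, 6.38 and 6.10. The 3 groups did not overlap. Nanog RNAi lowered Ccnd1 1.86-fold (log2 difference -0.89 ± 0.09 SE, limma adjusted p = 7.58e-07). Pou5f1 RNAi lowered it 4.63-fold (-2.21 ± 0.10, limma adjusted p = 3.22e-13), and the Pou5f1 group lay below the Nanog group by a further 2.49-fold (adjusted p = 1.23e-09). The other 2 probe sets fell too: 1448698_at by -0.84 with Nanog RNAi and -1.78 with Pou5f1 RNAi, and 1417419_at by -0.73 and -2.15, each called in all 3 comparisons.

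Ccnd2 was dim on these arrays, with group means between 3.04 and 5.59 over its 7 probe sets, and its main probe set fell with Pou5f1 RNAi. The main probe set (1416122_at) read 5.64, 5.56, 5.52, 5.37 and 5.86 in vector cells and 5.54, 5.00, 5.16 and 5.11 after Pou5f1 RNAi. These ranges overlapped through Pou5f1 RNAi replicate 1, and the difference was -0.39 ± 0.11 (limma adjusted p = 0.0104). It was not called without Pou5f1 RNAi replicate 2 (-0.32, adjusted p = 0.0531). With Pou5f1 RNAi 5 of 7 probe sets fell, the most being 1434745_at (-0.67 ± 0.07, adjusted p = 2.26e-07), whose groups did not overlap. With Nanog RNAi 2 of 7 fell, 1434745_at by 0.25 and 1430127_a_at by 0.37, and the main probe set was not called (-0.21, adjusted p = 0.228). The call on 1448229_s_at (-0.31) was lost without Pou5f1 RNAi replicate 2 or 4, and that on 1455956_x_at (-0.36) without any 1 of vector replicate 5 or Pou5f1 RNAi replicates 1, 2 and 4 (adjusted p up to 0.129).

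Ccnd3 went the other way with Pou5f1 RNAi. Its main probe set (1415907_at) read 9.84, 9.97, 10.03 and 10.003 there, above all 5 vector arrays (9.44, 9.54, 9.47, 9.50 and 9.45), a rise of 0.48 ± 0.08 (limma adjusted p = 4.95e-05). The Nanog RNAi arrays read 9.38, 9.35, 9.37, 9.47 and 9.69 and did not separate from vector (-0.03 ± 0.07, adjusted p = 0.89). The other 2 Ccnd3 probe sets had group means of 3.32 to 5.06 and were called in none of the 3 comparisons.

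The E-type cyclins, partners of Cdk2, parted from one another. Ccne1 fell with Pou5f1 RNAi on both probe sets: the main one (1441910_x_at) read 9.21, 9.47, 9.27 and 9.57 against 9.69, 9.89, 9.79, 9.75 and 9.73 in vector cells (-0.39 ± 0.08, limma adjusted p = 0.00098), and 1416492_at read 8.50, 8.45, 8.51 and 8.50 against 9.22, 9.26, 9.29, 9.15 and 9.13 (-0.72 ± 0.09, adjusted p = 1.66e-06). Neither pair of groups overlapped. Nanog RNAi gave no call on either (0.06 and 0.13), and the knockdowns differed from each other on both (-0.45 and -0.85). Ccne2, read by 1 probe set (1422535_at), rose in both. Its vector arrays read 6.14, 5.99, 6.32, 6.08 and 6.22, its Nanog RNAi arrays 6.82, 6.75, 6.89, 6.56 and 6.78, and its Pou5f1 RNAi arrays 7.14, 7.18, 7.32 and 7.04. The 3 groups stood apart in that order, with rises of 0.61 ± 0.08 (Nanog RNAi, limma adjusted p = 1.82e-05) and 1.02 ± 0.09 (Pou5f1 RNAi, adjusted p = 6.75e-09) and a difference of 0.41 between them (adjusted p = 0.000881).

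Cdkn1b, the inhibitor of cyclin E and Cdk2, differed in sign between the knockdowns. Its main probe set (1434045_at) read 6.13, 6.35, 6.50, 5.99 and 6.40 in vector cells, 5.50, 5.33, 5.61, 5.49 and 5.89 after Nanog RNAi and 6.83, 6.81, 6.91 and 6.60 after Pou5f1 RNAi. All Nanog RNAi arrays were below, and all Pou5f1 RNAi arrays above, every vector array. The fall with Nanog RNAi was -0.71 ± 0.11 (limma adjusted p = 6.88e-05), the rise with Pou5f1 RNAi 0.51 ± 0.11 (adjusted p = 0.00123), and the knockdowns differed by 1.22 ± 0.11, or 2.33-fold (adjusted p = 2.79e-08). The second probe set (1419497_at, group means from 3.35 to 3.82) also fell with Nanog RNAi (-0.48, adjusted p = 0.00014) but did not rise with Pou5f1 RNAi (-0.02, adjusted p = 0.886). The fall therefore rested on both probe sets and the rise on 1.

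Myc and Mycn, which encode related transcription factors, moved in opposite directions with Pou5f1 RNAi. Myc (1424942_a_at) read 6.50, 6.68, 6.79, 6.63 and 6.85 in vector cells, 7.56, 7.63, 7.64, 7.43 and 7.67 after Nanog RNAi, and 8.01, 7.95, 8.38 and 8.20 after Pou5f1 RNAi. The groups did not overlap: Myc rose 1.86-fold with Nanog RNAi (0.90 ± 0.09, limma adjusted p = 3.68e-07) and 2.72-fold with Pou5f1 RNAi (1.44 ± 0.10, adjusted p = 1.19e-10), and the second exceeded the first (0.55 ± 0.10, adjusted p = 0.000102). Mycn (1417155_at) was at 10.99, 11.01, 11.09, 11.04 and 10.94 in vector cells and 9.09, 9.28, 9.16 and 9.11 after Pou5f1 RNAi, 3.62-fold lower (-1.85 ± 0.07, adjusted p = 1.34e-14). After Nanog RNAi it read 11.16, 11.17, 11.20, 11.17 and 11.22, all above the vector arrays by a small margin that was not called (0.17 ± 0.06, adjusted p = 0.0851).

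The other Mycn probe sets disagreed with each other. On 1425922_a_at Mycn fell by 1.82 with Pou5f1 RNAi (adjusted p = 4.89e-12) and was higher with Nanog RNAi (0.30, adjusted p = 0.0303), a call kept in 4 of 10 refits without 1 array and lost without vector replicate 1, 3 or 4 or Nanog RNAi replicate 1, 2 or 5 (adjusted p up to 0.086). The third, 1425923_at, stayed between group means of 6.43 and 6.48 and was called in no comparison.

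Of the retinoblastoma family, whose proteins hold E2F factors in check, Rb1 rose in both knockdowns on its main probe set (1417850_at). The vector arrays spread from 6.88 to 7.47 (6.88, 6.97, 7.32, 7.28 and 7.47), wider than the Nanog RNAi arrays (7.72, 7.56, 7.83, 7.65 and 7.81) and the Pou5f1 RNAi arrays (7.52, 7.59, 7.74 and 7.43). The Nanog RNAi arrays lay above every vector array (0.53 ± 0.10, limma adjusted p = 0.000844), the Pou5f1 RNAi arrays overlapped them (0.39 ± 0.11, adjusted p = 0.00834), and the knockdowns were not separated (-0.15 ± 0.11, adjusted p = 0.397). The second Rb1 probe set (1444400_at) had means of 3.15 to 3.24 and gave no call. Rbl2, which encodes the Rb relative p130, was dim. Its main probe set (1425981_a_at) read 4.33, 4.23, 4.40 and 4.19 after Pou5f1 RNAi, below all vector arrays (4.65, 5.22, 4.71, 5.11 and 5.07; -0.66 ± 0.13, adjusted p = 0.000241), and did not change with Nanog RNAi beyond the spread (0.05, adjusted p = 0.871). The other (1418146_a_at) was called in neither.

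**Figure D2:**
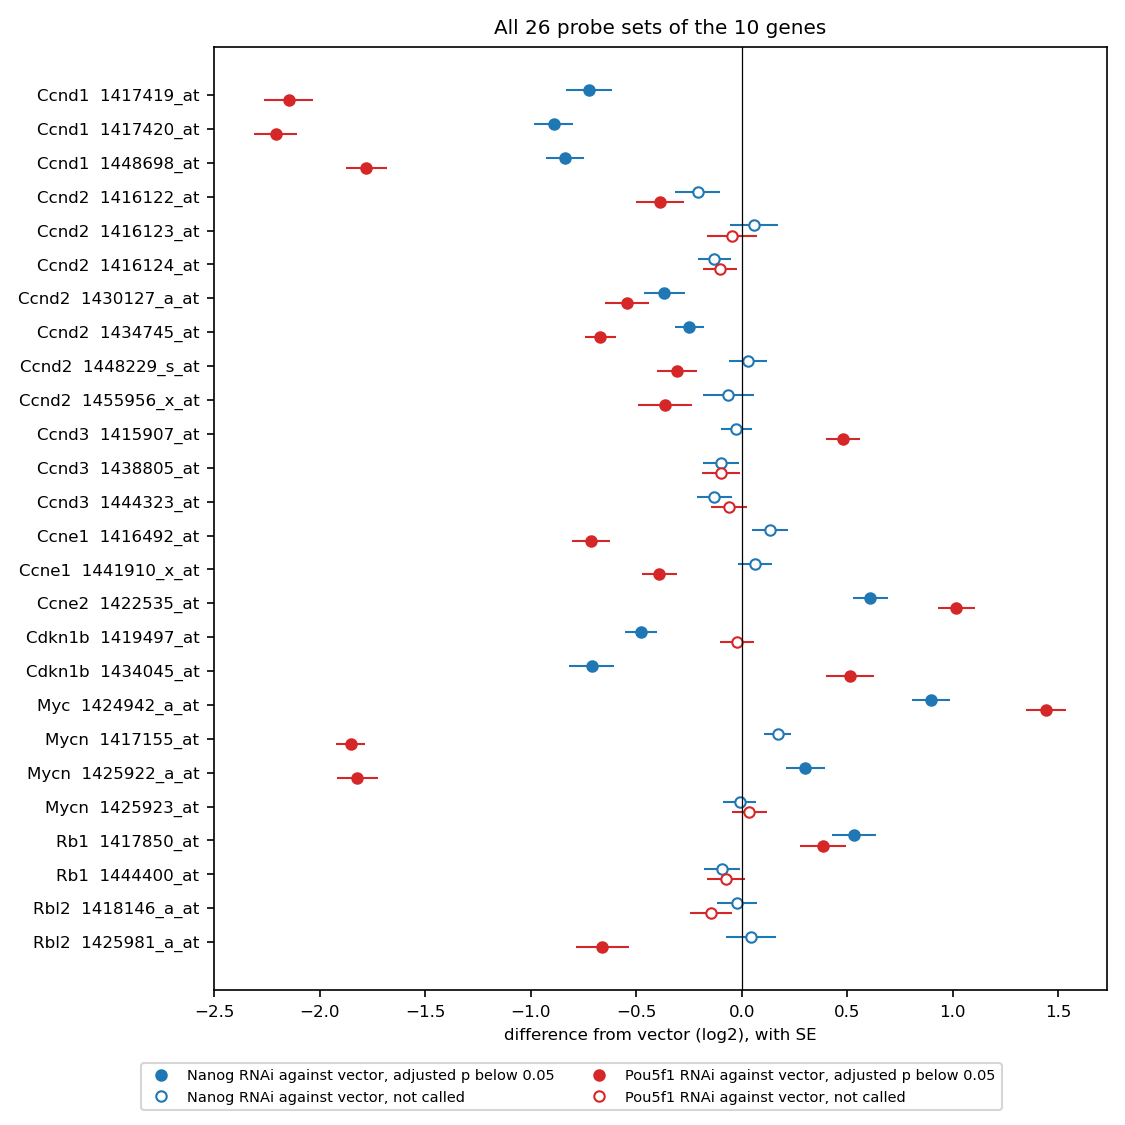
Log2 difference from vector, with its SE, for each of the 26 probe sets after Nanog RNAi (blue) and Pou5f1 RNAi (red); filled points had a limma adjusted p below 0.05. The 3 Ccnd1 probe sets lie together at -1.78 to -2.21 with Pou5f1 RNAi, while 2 Mycn probe sets lie at -1.85 and -1.82 and the third at 0.04.

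On the ratio arrays, values are log ratios of treated over untreated cells, with the base taken as 2 and each array centred on a median of 0. Opposite-dye arrays of 1 inducer and day correlated between -0.013 (DMSO day 2) and 0.661 (DMSO day 6) over all probes, and DMSO day 4 replicate 2 held 11257 values against at least 15679 on the others. Arrays of the same orientation deviated together in all 36 pairs compared. Each test of a member probe is therefore also given with dye orientation as a block, called the dye block, where that changes a call. Marker genes, Pou5f1, Nanog and the other gene lists were tested on these arrays without the dye block only. Refits that left out an array or a day were also made without it. All 11 member probes could be tested among 16657. Averaged over days, RA changed 4 of the 11 (3 higher, 1 lower; 25.1% of all probes), DMSO 6 (3 higher, 3 lower; 17% of all) and HMBA 5 (2 higher, 3 lower; 24.8% of all). With the dye block the counts were 7, 10 and 9, against 49.3%, 41.1% and 47.9% of all probes. Pluripotency markers fell with the inducers as well: 7 of 8 with RA and 8 of 8 with DMSO and with HMBA (medians -1.80, -2.20 and -1.97), and 4, 3 and 4 of 6 fibroblast markers rose, 1 falling with DMSO. Trophectoderm markers rose in 3, 1 and 2 of 6 with RA, DMSO and HMBA in turn, and 1 fell with HMBA. That is 50%, 16.7% and 50% of the list, against 27.5%, 19.3% and 28.3% of all genes. Of 4 primitive endoderm markers, 2 rose and 1 fell with RA (75%), 0 were called with DMSO and 1 rose with HMBA (25%). Their part in the results below was not tested.

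**Figure D3:**
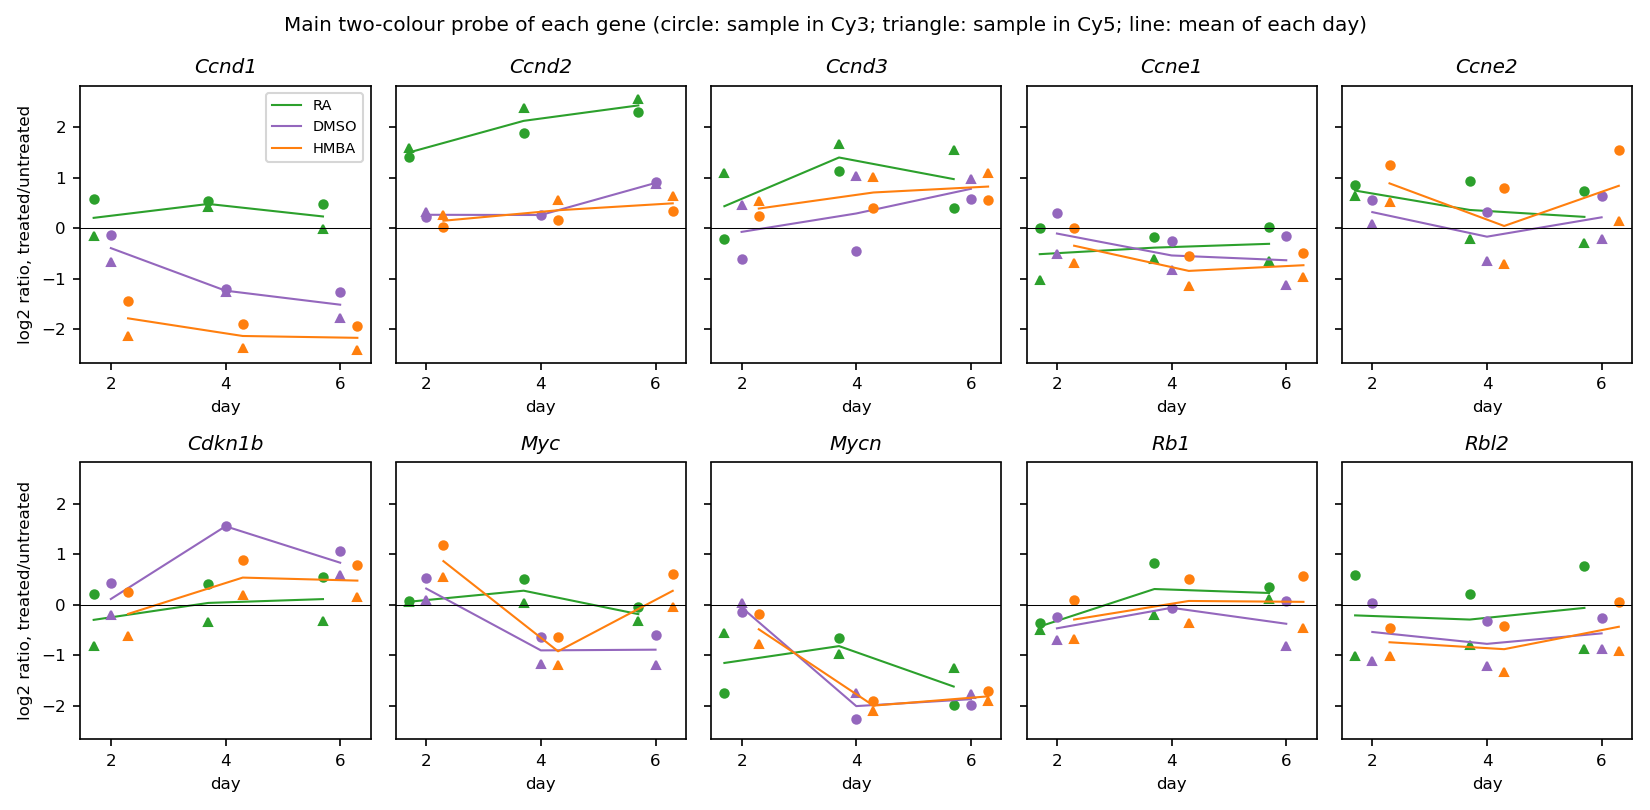
Log2 ratio of treated over untreated cells on days 2, 4 and 6 for the main ratio-array probe of each gene; circles are arrays with the sample in Cy3, triangles arrays with it in Cy5, and lines the mean of each day. Ccnd1 separates the inducers (RA near 0.3, DMSO down to -1.52 and HMBA to -2.17 as day means), Ccnd2 is high with RA (up to 2.43), and Mycn has day 4 means of -2.01 with DMSO and -2.001 with HMBA.

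Ccnd1 set the inducers apart. With HMBA its 6 log2 ratios were -1.44 and -2.13 on day 2, -1.90 and -2.37 on day 4 and -1.93 and -2.41 on day 6, a mean 4.09-fold below untreated cells (-2.03 ± 0.14, limma adjusted p = 6.29e-07). With DMSO they were -0.13 and -0.66, -1.21 and -1.27, and -1.26 and -1.77, a mean fall of 1.05 ± 0.14 (adjusted p = 0.000212). With RA they were 0.57 and -0.16, 0.54 and 0.41, and 0.48 and -0.02, so that 4 of 6 were above 0 and the mean was not called (0.30 ± 0.14, adjusted p = 0.145; higher with the dye block, adjusted p = 0.0026). No RA array was as low as any HMBA array.

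Across inducer pairs, at doses that cannot be matched between compounds, 3 member probes differed between RA and DMSO (6.19% of all probes), 3 between RA and HMBA (3.28%) and 1 between DMSO and HMBA (1.45%). These were Ccnd1 and both Ccnd2 probes in the first pair and in the second, all higher with RA, and Ccnd1 alone in the third. Ccnd1 was 2.56-fold higher with RA than with DMSO (1.35 ± 0.20, limma adjusted p = 0.00114), 5.05-fold higher than with HMBA (2.34 ± 0.20, adjusted p = 3.02e-05) and 1.97-fold higher with DMSO than with HMBA (0.98 ± 0.20, adjusted p = 0.0311). The last call was kept in 4 of 12 refits that each left out 1 array (0.87 to 1.10, adjusted p up to 0.113), and was lost without any 1 of the 5 DMSO arrays other than day 2 replicate 2 or any 1 of the HMBA Cy5 arrays. With the dye block and all arrays that difference had adjusted p = 6.63e-06. With the dye block 8, 5 and 4 member probes differed in the 3 pairs, against 22.7%, 16.5% and 9.66% of all probes.

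Ccnd2, whose main probe set fell with Pou5f1 RNAi, rose with all 3 inducers on both of its probes, and most with RA. The main probe read 1.42 and 1.58 on day 2, 1.88 and 2.37 on day 4 and 2.30 and 2.57 on day 6 of RA, a mean 4.05-fold rise (2.02 ± 0.10, limma adjusted p = 7.88e-08). With DMSO its 5 values ran from 0.21 to 0.92 (median 0.32; mean 0.47 ± 0.11, adjusted p = 0.0134), and with HMBA its 6 ran from 0.02 to 0.64 (median 0.31; mean 0.33 ± 0.10, adjusted p = 0.0288). Every value was above 0, and every RA value exceeded every DMSO and HMBA value. The second probe gave a 10.8-fold rise with RA (3.43 ± 0.16; values 3.28, 2.49, 3.35, 4.25 and 3.84), 2.47-fold with DMSO and 2.41-fold with HMBA, all called; it lacked a value on day 4 in Cy5 for every inducer. On the main probe RA exceeded DMSO by 1.55 ± 0.15 (adjusted p = 7.32e-05) and HMBA by 1.69 ± 0.14 (adjusted p = 4e-05), and DMSO and HMBA were not separated (0.14 ± 0.15, adjusted p = 1). The main-probe call for HMBA was lost without any 1 of 4 arrays (HMBA day 2 replicates 1 and 2, day 4 replicate 2 and day 6 replicate 2; adjusted p up to 0.152), and that for DMSO without day 2 replicate 2 (0.46, adjusted p = 0.0508). Leaving out day 6 also ended both (0.25 with HMBA and 0.26 with DMSO, adjusted p = 0.215 and 0.404), as leaving out day 4 did for HMBA (0.32, adjusted p = 0.109). With the dye block and all arrays the main probe had adjusted p = 0.000893 for HMBA and 9.01e-05 for DMSO.

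Ccnd3 rose with RA: its log2 ratios were -0.22 and 1.09, 1.14 and 1.66, and 0.40 and 1.54 on days 2, 4 and 6 (mean 0.93 ± 0.24, limma adjusted p = 0.0108). On each day the Cy5 array was the higher, and the call was lost without any 1 of the 3 Cy5 arrays (0.72 to 0.85, adjusted p up to 0.0673) or without day 4 (0.70, adjusted p = 0.12). With the dye block and all arrays the rise with RA had adjusted p = 6.82e-07. HMBA values were above 0 on 6 of 6 arrays (0.25 to 1.09; mean 0.64 ± 0.24, adjusted p = 0.0682) and DMSO values on 4 of 6 (-0.60 to 1.03; mean 0.33, adjusted p = 0.421). Both were called higher with the dye block (adjusted p = 5.58e-05 and 0.0171), as was RA over DMSO (0.60, adjusted p = 0.0061).

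Ccne1 was lower with HMBA, where 6 of 6 values were below 0 (-1.15 to -0.0039, median -0.62; mean -0.64 ± 0.19, limma adjusted p = 0.0249), a call lost without the Cy5 array of any 1 day (adjusted p up to 0.128), without day 4 (-0.54, adjusted p = 0.157) or without day 6 (-0.60, adjusted p = 0.11). With the dye block and all arrays the fall with HMBA had adjusted p = 7.96e-07. RA (-0.40) and DMSO (-0.43) each had 5 of 6 values below 0 and were called with the dye block alone (adjusted p = 0.000158 and 0.000123, against 0.151 and 0.16 without it). Ccne2, higher in both knockdowns, was called for no inducer without the dye block. Its means were 0.44 with RA, 0.12 with DMSO and 0.59 with HMBA (adjusted p = 0.255, 0.822 and 0.124), and the Cy3 array was the higher on every day of every inducer. With the dye block RA and HMBA were called higher (adjusted p = 0.0014 and 9.32e-05), and HMBA exceeded DMSO by 0.47 (adjusted p = 0.047).

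Cdkn1b rose with DMSO alone without the dye block: its 5 values were 0.42 and -0.20 on day 2, 1.55 on day 4 and 1.07 and 0.59 on day 6 (mean 0.83 ± 0.23, limma adjusted p = 0.0258). Day 4 rested on 1 array, with the sample in Cy3, and in every complete pair of every inducer the Cy3 array was the higher. With the dye block the DMSO mean was 0.71 (adjusted p = 2.78e-06). In refits without that block the call was lost without DMSO day 2 replicate 1 or day 6 replicate 1 (0.73 and 0.75, adjusted p = 0.0963 and 0.095). It was also lost without day 4 (0.47, adjusted p = 0.307) or without day 6 (0.83, adjusted p = 0.126). With RA the 6 values ran from -0.81 to 0.54 (median -0.06) and with HMBA from -0.61 to 0.88 (median 0.22), neither called (adjusted p = 0.893 and 0.377). With the dye block HMBA was called higher (0.28, adjusted p = 0.00388), and DMSO lay above RA by 0.76 (adjusted p = 6.36e-05) and above HMBA by 0.43 (adjusted p = 0.0179), while RA lay below HMBA (-0.33, adjusted p = 0.0338).

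Mycn was called lower with all 3 inducers, as with Pou5f1 RNAi. Without the dye block it was the one member so called; with it Ccne1 was too. Under RA it read -1.75 and -0.56 on day 2, -0.66 and -0.98 on day 4 and -1.99 and -1.25 on day 6 (mean -1.20 ± 0.15, limma adjusted p = 9.48e-05). Under DMSO it read -0.15 and 0.04, then -2.27 and -1.75, then -1.98 and -1.76 (mean -1.31 ± 0.15, adjusted p = 7.52e-05), and under HMBA -0.19 and -0.78, -1.90 and -2.10, and -1.72 and -1.92 (mean -1.44 ± 0.15, adjusted p = 2.21e-05). On day 2 the DMSO values lay either side of 0 and both RA values at -0.56 or lower, while on days 4 and 6 every DMSO and HMBA value was at -1.72 or lower. No inducer pair differed in the mean over days (0.11, 0.24 and 0.12, adjusted p = 0.915, 0.866 and 1).

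Myc fell with DMSO (values 0.54 and 0.10 on day 2, -0.63 and -1.18 on day 4, -0.60 and -1.19 on day 6; mean -0.49 ± 0.14, limma adjusted p = 0.0294), a call lost without DMSO day 2, day 4 or day 6 replicate 2 (-0.42, -0.40 and -0.39, adjusted p up to 0.16) or without day 4 or day 6 (both -0.29, adjusted p = 0.413 and 0.427). Under HMBA it read 1.17 and 0.55, -0.64 and -1.21, and 0.60 and -0.05, so that day 2 was high and day 4 low, and the mean over days was 0.07 (adjusted p = 0.8); without day 4 it was called higher (0.57, adjusted p = 0.0425). RA values stayed between -0.32 and 0.51 (mean 0.05, adjusted p = 0.859). With the dye block and all arrays Myc was lower with DMSO than in untreated cells (adjusted p = 2.74e-05), than with RA (adjusted p = 0.000769) and than with HMBA (adjusted p = 0.00151).

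Rb1 and Rbl2 were called for no inducer without the dye block. Rb1 means were 0.04 with RA, -0.30 with DMSO and -0.06 with HMBA (limma adjusted p = 0.928, 0.451 and 0.892), and DMSO was called lower with the dye block (-0.42, adjusted p = 0.00507). For Rbl2 the Cy3 array was the higher on every day of every inducer, as on day 6 of RA (0.76 against -0.88). Its means were -0.19, -0.63 and -0.69 with RA, DMSO and HMBA (adjusted p = 0.699, 0.159 and 0.0963), the last 2 called lower with the dye block (adjusted p = 3.78e-05 and 9.1e-06). In that fit Rbl2 was also higher with RA than with DMSO (0.44, adjusted p = 0.0262) and than with HMBA (0.50, adjusted p = 0.0171), and Rb1 was higher with RA than with DMSO (0.45, adjusted p = 0.0291).

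Between day 2 and day 6, Mycn with DMSO was the single member called without the dye block (-1.82 ± 0.38, limma adjusted p = 0.0442). The call was lost on leaving out any 1 of its 4 arrays, DMSO day 2 or day 6, replicate 1 or 2 (-1.71 to -1.93, adjusted p up to 0.33). With the dye block and all arrays its adjusted p was 0.000903. Over all probes 0.955% changed with DMSO, 1.09% with RA, where 0 of 11 member probes were called (2 at an unadjusted p below 0.05), and 1.48% with HMBA, also 0 of 11 (2 unadjusted). With the dye block the member calls were 2 with RA, 7 with DMSO and 4 with HMBA, against 10.7%, 9.9% and 10% of all probes. In that fit both Ccnd2 probes rose with RA (0.93 and 1.16) and with DMSO (0.63 and 1.15), and 1 rose with HMBA (0.77). Ccnd1 fell by 1.12 with DMSO, Cdkn1b rose with DMSO (0.72) and HMBA (0.66), Ccnd3 rose with DMSO (0.85), and Myc fell with DMSO (-1.21) and HMBA (-0.59). Mycn fell with HMBA by 1.33 (adjusted p = 0.00948) as well as with DMSO.

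**Figure D4:**
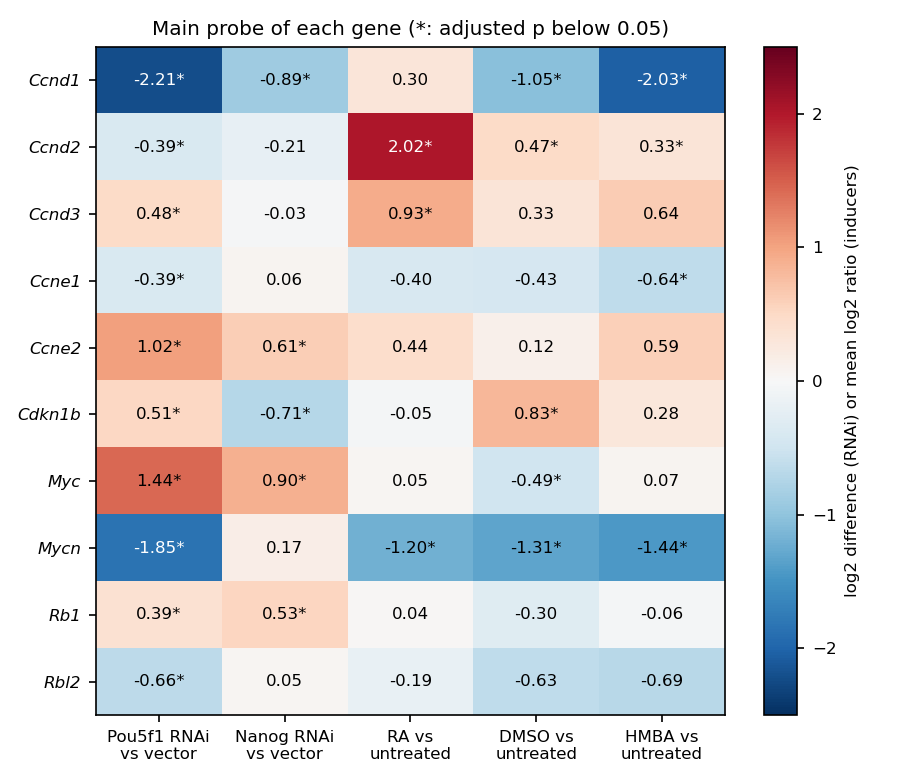
Main probe of each gene in 5 comparisons: colour and number give the log2 difference from vector (knockdowns) or the mean log2 ratio over days (inducers), and an asterisk marks a limma adjusted p below 0.05 without the dye block. Ccnd1 is lower in 4 of the 5 columns and Mycn in 4, Ccnd1 being at 0.30 with RA and Mycn at 0.17 with Nanog RNAi.

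The 2 knockdown comparisons share the vector arrays, and the 3 inducers share the untreated reference. Set side by side, the main-probe values for Ccnd1 were -2.21, -0.89, 0.30, -1.05 and -2.03 with Pou5f1 RNAi, Nanog RNAi, RA, DMSO and HMBA, and those for Mycn were -1.85, 0.17, -1.20, -1.31 and -1.44. Pou5f1 RNA on the ratio arrays was lower with all 3 inducers (-1.93 with RA, -0.62 with DMSO, -1.47 with HMBA), whereas Nanog RNA was called lower with DMSO (-1.55) and HMBA (-1.40) but not with RA (-0.47, limma adjusted p = 0.0522). Nanog RNA was higher with RA than with DMSO (1.09, adjusted p = 0.0125) or HMBA (0.93, adjusted p = 0.0466). Pou5f1 RNA was lower with RA than with DMSO (-1.31, adjusted p = 0.000326) and higher with DMSO than with HMBA (0.85, adjusted p = 0.0216), and RA and HMBA were not separated (-0.46, adjusted p = 0.208).

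Genes with the pattern most like each strongly changed member were sought over the 14 knockdown arrays, among 1894 genes whose group means spanned at least 1 log2. The arrays form 3 groups, so these Pearson r values mostly restate the group means and are descriptions. For Ccnd1 the closest were Eif1ax (0.993), Ifitm1 (0.992) and Fgf4 (0.991), with 314 genes above 0.9. For Mycn they were Enpp3 (0.997), Ell2 and Aass (both 0.996), with 418 above 0.9. Capn2 was closest both to Myc (0.988) and to Ccne2 (0.990). Cdkn1b had the fewest companions, 44 above 0.9, led by Ptgfrn (0.975), Csnk1e (0.963) and Idh2 (0.954).

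The partners and targets of these genes were counted by main probe set, where 40.1% of all 18193 genes were called with Pou5f1 RNAi and 20.8% with Nanog RNAi. These lists, too, were chosen with earlier results of these data known, so their shares are descriptions. Of 6 other kinase inhibitors, 4 rose with Pou5f1 RNAi and 3 with Nanog RNAi (medians 0.53 and 0.31, against -0.04 and -0.02 for all genes). Cdkn1c (p57) rose most, by 4.04 ± 0.09 and 1.35 ± 0.09 (limma adjusted p = 1.4e-17 and 6.83e-10), then Cdkn1a (p21; 1.54 and 0.50) and Cdkn2b (p15; 0.84 and 0.72). On the ratio arrays Cdkn1c rose with RA (2.54 ± 0.09, adjusted p = 1.85e-09) and HMBA (1.61 ± 0.09, adjusted p = 8.62e-08) and was lower with DMSO (-0.29 ± 0.09, adjusted p = 0.0401). Of the 5 inhibitors tested there, 4 rose with RA, 3 with HMBA and 0 with DMSO, against 27.5%, 28.3% and 19.3% of all genes called.

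Of the 7 cyclin-dependent kinases and activators, 1 rose (Cdk7, 0.42) and 4 fell with Pou5f1 RNAi, among them Cdk4, the partner of D-type cyclins (-0.38), and Ccnh (-0.35) and Mnat1 (-0.43), partners of Cdk7. Nanog RNAi raised 1, Cdk6 (0.40), and for each inducer limma called 0 of the 7 without the dye block (0 at an unadjusted p below 0.05). Of 11 E2F, DP and Rbl1 genes, 3 rose and 5 fell with Pou5f1 RNAi, from Tfdp2 (-1.40 ± 0.09, limma adjusted p = 7.34e-11) to E2f7 (0.98 ± 0.10, adjusted p = 6.89e-08), and E2f1 fell by 0.62. Of 8 E2F target genes tested, 5 fell with Pou5f1 RNAi and 2 with Nanog RNAi (medians -0.36 and 0.07). Mybl2, a regulator of S phase and mitosis genes, fell most (-0.92 and -0.34), then Tk1 (-0.81 and -0.29). Of the 7 E2F targets tested on the ratio arrays, 1 rose and 1 fell with RA, 0 and 1 with DMSO, and 1 and 1 with HMBA. That is 28.6%, 14.3% and 28.6% of the list, against 27.5%, 19.3% and 28.3% of all genes. The list's medians there were -0.01, 0.12 and 0.06. Mybl2 had the largest fall among them with RA (-1.45), DMSO (-1.61) and HMBA (-1.22).

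Of 10 Myc target genes, 9 fell with Pou5f1 RNAi, in which Mycn fell and Myc rose, and 1 fell with Nanog RNAi (medians -0.38 and -0.00097). The largest falls with Pou5f1 RNAi were those of Srm, for spermidine synthase (-0.90 ± 0.08, limma adjusted p = 1.65e-08), Cad, for pyrimidine synthesis (-0.78), and Odc1, for polyamine synthesis (-0.70), and all 3 were lower than with Nanog RNAi too (-0.89, -0.79 and -0.72). Ldha was the single target called with Nanog RNAi (-0.59). With RA, DMSO and HMBA 5, 3 and 4 of the 10 fell (medians -0.43, -0.43 and -0.53), and none rose. That is 50%, 30% and 40% of the list, against 27.5%, 19.3% and 28.3% of all genes. Srm (-0.69, -0.92 and -1.08) and the nucleolar gene Nop56 (-0.68, -0.78 and -0.87) fell with all 3. Of 9 Myc partners and antagonists, 2 rose and 4 fell with Pou5f1 RNAi, and 1 rose and 4 fell with Nanog RNAi. The Myc antagonist Mxi1 (-1.39 and -0.61) and the Myc relative Mycl (-1.08 and -0.70) fell in both. Mga, which binds Max, fell in both (-0.71 and -0.37) and with each inducer (-0.89, -0.86 and -0.86). Of the 8 partners and antagonists tested on the ratio arrays, 1, 2 and 1 fell with RA, DMSO and HMBA, and 0 rose. That is 12.5%, 25% and 12.5% of the list, against 27.5%, 19.3% and 28.3% of all genes.

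Of 9 genes for ubiquitin ligases of cyclins, p27 and Myc, 4 rose and 1 fell with Pou5f1 RNAi, led by the scaffold Cul1 (0.79 ± 0.08, limma adjusted p = 4.59e-08) and by Fbxo4 (0.66 ± 0.10, adjusted p = 1.43e-05). Nanog RNAi raised 2: Fbxw7, an F-box protein that targets cyclin E and Myc (0.52 ± 0.08, adjusted p = 0.000119), and Cul3 (0.29). With RA, DMSO and HMBA 2, 1 and 2 rose and 0, 1 and 2 fell, which is 22.2%, 22.2% and 44.4% of the list against 27.5%, 19.3% and 28.3% of all genes. Skp2, an F-box protein for p27, was lower with HMBA (-0.51, adjusted p = 0.0194).

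**Figure D5:**
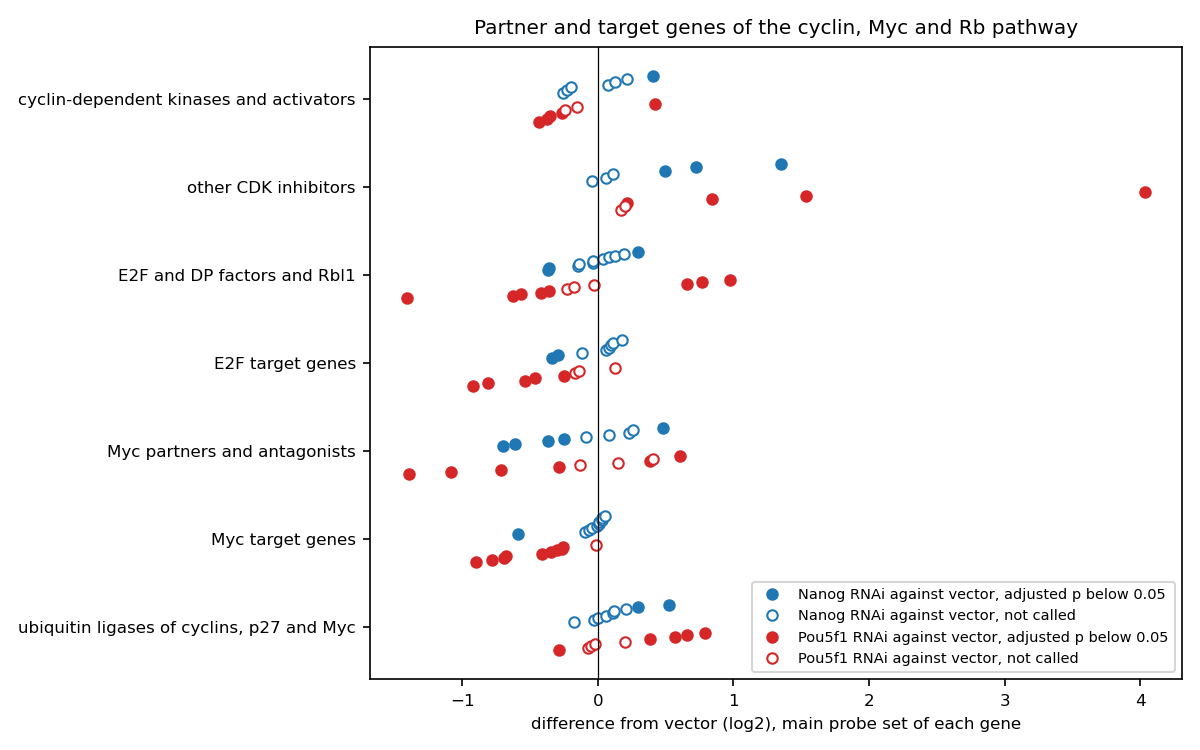
Log2 difference from vector for the main probe set of each gene in 7 lists of partners and targets, after Nanog RNAi (blue) and Pou5f1 RNAi (red); filled points had a limma adjusted p below 0.05. Cdkn1c lies far to the right (4.04 with Pou5f1 RNAi), and the 10 Myc targets lie left of 0 with Pou5f1 RNAi, 9 of them called.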

How the data were processed

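The authors deposited log2 signals of 14 Affymetrix arrays, summarised by RMA per the submitters' processing notes, and log ratios of 18 dual-channel arrays, turned to treated over untreated cells per the labels. No source used here states the base, background correction or within-array normalization of the ratios; they were treated as log2, and each array's median was 0 or -5e-05. Arrays carry no read depth, and their number limits the precision. The ratio arrays held 11257 to 20019 values each.

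Probes were named from the platform annotation tables: 34945 probe sets and 16345 ratio-array probes had 1 symbol, 932 and 125 several, and 9160 and 4636 none. After 64 control probe sets were set aside, 45037 probe sets and the 16657 ratio-array probes with a value in every group were fitted, each platform in 1 model, by limma 3.58.1 in R 4.3.3 (least squares, eBayes), with a mean per group or per inducer and day and no block. Missing ratios were left out of a probe's fit and not imputed. P-values were adjusted by Benjamini-Hochberg over all probes of a comparison. Inducers were tested as the mean of 3 days against 0. The fits were tested on simulated data.

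Replicate numbers paired the ratio arrays, where they give dye orientation (deviations correlated at 0.505 to 0.920 in 36 of 36 pairs). On the knockdown arrays they did so for some pairs only (above 0.1 in 5 of 13 pairs, -0.246 to 0.437). The alternatives were the replicate block, other normalization and moderation, filters on dim or incomplete probes, fewer groups or days, and leaving out each array.

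All member probes were described. A gene's main probe set had the highest mean over the 14 arrays, and its main ratio-array probe the most values, ties going to the lower ID. From each list of other genes, up to 4 called genes of smallest p per comparison, and any changed by at least 1 log2, could be named. Pattern likeness took the 3 genes of highest r for members changed by at least 1 log2. The members and lists were chosen with earlier results of these data known.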

Additional observations from a re-analysis of the deposited data

Results flagged for a closer look

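Each member probe set was checked in each knockdown group, 78 groups of 4 or 5 arrays in all, for an array far from the others by Dixon's criterion. It found 5, and chance alone marks about 1 in 20 groups. For Ccne1 (1416492_at), Nanog RNAi replicate 5 read 9.698 while the others read 9.202 to 9.301. For Ccnd3 (1438805_at), vector replicate 2 read 3.693 against 3.286 to 3.403, and Pou5f1 RNAi replicate 3 read 3.113 against 3.364 to 3.404. For Rb1 (1444400_at), Nanog RNAi replicate 1 read 3.341 against 3.072 to 3.129. For Ccnd2 (1455956_x_at), vector replicate 5 read 5.815 against 5.17 to 5.339. The fall of that probe set with Pou5f1 RNAi was not called without this array (limma adjusted p = 0.0922), nor without Pou5f1 RNAi replicate 1, 2 or 4.

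The log2 ratio of Mycn to untreated cells differed between time points of DMSO, day 6 minus day 2 being -1.82 (limma adjusted p = 0.0442). The day 2 arrays read -0.15 and 0.04 and the day 6 arrays -1.98 and -1.76, and the call was lost without any 1 of these 4 arrays. Those refits had no dye block, and with it the limma adjusted p over all arrays was 0.000903.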

How the results depend on the processing

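Of 2246 member values recomputed, 2154 kept their side of the threshold, 54 lost a call and 38 gained one. A called direction reversed in 0, and 107 values that were not called changed sign. With the replicate block (dye orientation), member probes called went from 4 to 7 for RA, 6 to 10 for DMSO, 5 to 9 for HMBA, 3 to 8 for RA against DMSO, 3 to 5 for RA against HMBA and 1 to 4 for DMSO against HMBA. Between days 2 and 6 they went from 0 to 2 for RA, 1 to 7 for DMSO and 0 to 4 for HMBA. On the knockdown arrays, which the numbers paired only in part, the replicate block gave 17, 11 and 15 calls in place of 18, 11 and 15, Ccnd2 1455956_x_at being lost (limma adjusted p = 0.0578). Over all probe sets it gave 16023, 8255 and 14291 calls in place of 14240, 7017 and 13282. Probes with all 18 values included 7 member probes, fewer than the 11 tested otherwise. They gave 2 calls for RA, 3 for DMSO, 3 for HMBA, 1 for RA against DMSO and 1 for RA against HMBA. Of all 10763 such probes 3160, 2325, 3199, 798 and 418 were called, in the same order. Without day 6 there were 3 calls for DMSO and 3 for HMBA, and 1378 and 2722 over all 16657 probes. Leaving out 1 array gave 3 to 5 calls for DMSO, 3 to 5 for HMBA and 1 to 3 for RA against DMSO. It gave 0 to 1 for DMSO against HMBA, and 0 in all 4 refits for DMSO day 6 against day 2. Without DMSO day 4 replicate 1 only 7 member probes could be tested, which gave the 3 for DMSO and the 1 for RA against DMSO. No call on a tested probe was lost for RA against DMSO. Over all probes these refits called 1932 to 2326 for DMSO (2834 with every array) and 3054 to 3367 for HMBA (4137). They called 696 to 1162 for RA against DMSO (1031) and 123 to 191 for DMSO against HMBA (242). For DMSO day 6 against day 2 they called 18 to 39 (159). Scale normalization ended the fall of Myc with DMSO (-0.42, limma adjusted p = 0.0516) and called Ccnd3 higher with HMBA (adjusted p = 0.0474). A filter at a mean of 6 log2 kept 13 member probe sets, with 12, 9 and 11 calls. Of all 13799 probe sets it kept, 9374 were called with Pou5f1 RNAi, 5623 with Nanog RNAi and 8928 between the knockdowns. All probe sets of higher signal were thus called more often than all probe sets. The filter also called Mycn 1417155_at higher with Nanog RNAi (0.17, limma adjusted p = 0.026). Trend and robust moderation did so too (adjusted p = 0.0288) and ended the fall of Ccnd2 1434745_at there (adjusted p = 0.0513). With only the 2 knockdown groups in the fit, Ccnd2 1455956_x_at was called lower with Pou5f1 than with Nanog RNAi (adjusted p = 0.0474). The cause of these changes was not tested. The dim probe sets of Ccnd2, Rbl2 and others lie near the low end of the signal, which limits the change they can show.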

Other observations

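The log2 ratio of Cdkn1c, for the p57 inhibitor of cyclin-dependent kinases, rose between days 2 and 6 by 1.62 ± 0.22 with RA (limma adjusted p = 0.0027) and by 3.38 ± 0.22 with HMBA (limma adjusted p = 1.5e-05). Averaged over days it was higher with RA than with DMSO (2.83 ± 0.13, limma adjusted p = 4.92e-08) and lower with DMSO than with HMBA (-1.90 ± 0.13, limma adjusted p = 8.24e-06). Cdkn2b, the p15 inhibitor, rose with RA (1.31 ± 0.10) and was higher there than with DMSO (1.36 ± 0.14, limma adjusted p = 7.32e-05). Between days 2 and 6 of DMSO 2 of the 10 Myc targets fell, where 1.13% of all 12029 genes were called: Srm, for spermidine synthase (-1.58 ± 0.23, limma adjusted p = 0.00649), and Nop56, a nucleolar protein gene (-1.21 ± 0.19, limma adjusted p = 0.0113).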
